A study of Homo sapiens with 16 samples.

Results

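Long intergenic noncoding RNAs of the LINC series are transcripts with no assigned protein product that carry a running number in place of a name. They were followed here in JSL1 cells, a clone of the Jurkat human T cell leukaemia line. A member was a GENCODE release 29 gene whose symbol starts with LINC and whose mean TPM was at least 0.5 in 1 or more of the 6 groups of line and treatment. TPM is a level per transcript length, scaled so that the levels of all genes in a library add up to the same sum. The rule gave 307 members of 1891 LINC genes, in a table of 58295 genes. Of the other LINC genes, 996 were listed at 0 in all 16 libraries.

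The study edited HDAC7, a class IIa histone deacetylase, with CRISPR-Cas9 and sequenced polyadenylated RNA. The 6 groups were iE9 cells (labelled HDAC7 E9 knock-in, JSL1 HDAC7 E9+) with PMA (n = 3) and without (n = 3), dE9 cells (labelled HDAC7 E9 knock-out, JSL1 HDAC7 E9-/-) with PMA (n = 3) and without (n = 3), and WT JSL1 cells with PMA (n = 2) and without (n = 2). PMA, a phorbol ester and activator of protein kinase C, was given at 20 ng/mL for 48 h in RPMI medium with serum. The comparisons ask how PMA changed each line and how the lines differed within a treatment. All 3 lines share the JSL1 background, and the labels do not say whether a line is 1 clone or whether libraries came from separate cultures, and p-values therefore reflect the spread of these libraries only, which may be technical. The labels put every library at 48 h, whereas the design text sets 0 h against 48 h.

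Libraries held 14536521 to 21888846 estimated counts. HDAC7 itself had 164.8 to 210.5 TPM in PMA-treated iE9 libraries and 61.0 to 103 TPM in unstimulated ones, 63.3 to 132 TPM in PMA-treated dE9 libraries and 21.2 to 26.8 TPM in unstimulated ones, and 107 to 116 TPM in PMA-treated WT libraries and 20.6 to 24.9 TPM in unstimulated ones. Of 10 T cell markers, 9 were at 1 TPM or more in every library. The 5 myeloid markers summed to at most 1.41 TPM in any library. The 5 B cell markers, of which 1 was at 1 TPM or more in every library, summed to 304 to 539 TPM with PMA and 52.5 to 188 TPM without in iE9, 14.8 to 203 and 8.94 to 33.2 TPM in dE9, and 47.3 to 83.4 and 16.8 to 28.6 TPM in WT. The 5 erythroid markers summed to 15.04 to 87.0 TPM with PMA and 7.35 to 11.3 TPM without in iE9, 2.37 to 74.9 and 1.97 to 4.48 TPM in dE9, and 2.22 to 2.43 and 2.68 to 4.13 TPM in WT. The 5 NK cell markers summed to 15.4 to 25.8 TPM with PMA and 15.7 to 61.5 TPM without in iE9, 14.2 to 28.6 and 6.67 to 7.65 TPM in dE9, and 13.9 to 15.9 and 5.76 to 6.33 TPM in WT, and 2 of the 4 NK cell markers tested were called higher in unstimulated iE9 cells than in unstimulated dE9 and WT cells. The 5 fibroblast or endothelial markers, of which 1 was at 1 TPM or more in every library, summed to 45.9 to 75.8 TPM with PMA and 13.6 to 22.5 TPM without in iE9, 16.01 to 49.8 and 8.24 to 19.3 TPM in dE9, and 19.3 to 23.5 and 13.7 to 16.9 TPM in WT. The 4 epithelial markers summed to at most 2.89 TPM in any library. Whether these marker transcripts came from JSL1 cells or from other cells, and their part in the results, was not tested. The share of HDAC7 TPM from transcripts with exon 9 was 42.3 to 63.0% in PMA-treated iE9 libraries, 0 to 0.678% in PMA-treated dE9 libraries and 43.1 to 53.8% in PMA-treated WT libraries. In unstimulated cells it was 51.8 to 74.8% in iE9, 0.841 to 7.37% in dE9 and 46.6 to 47.5% in WT. With PMA, iE9 thus overlapped WT in this share, and "iE9" below means the libraries labelled so. The 2 iE9 libraries numbered 1 had the highest mitochondrial shares of counts, 12.8% with PMA and 9.17% without, against 3.0 to 6.39% in the other libraries. Counts are also given without these libraries.

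Long noncoding RNAs are usually present at lower levels than messenger RNAs and in fewer cell types. Many are transcribed from the opposite strand of a promoter they share with a protein-coding gene, and much of this RNA is kept in the nucleus or degraded by the nuclear exosome. In T cells, phorbol ester acts through protein kinase C and the Ras and MAP kinase route, which raises and activates AP-1 factors of the FOS and JUN families. AP-1 binds the sequence TGANTCA.

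The promoter windows of 6 members that rose with PMA in at least 1 line are shown first because each holds that motif. They are RefSeq windows on GRCh38.p14, from 250 bases before to 50 bases after an annotated start, written 5′ to 3′ on the strand of the gene, with TGANTCA matches in capitals.
LINC00892 (chrX:136639293-136639592, plus strand): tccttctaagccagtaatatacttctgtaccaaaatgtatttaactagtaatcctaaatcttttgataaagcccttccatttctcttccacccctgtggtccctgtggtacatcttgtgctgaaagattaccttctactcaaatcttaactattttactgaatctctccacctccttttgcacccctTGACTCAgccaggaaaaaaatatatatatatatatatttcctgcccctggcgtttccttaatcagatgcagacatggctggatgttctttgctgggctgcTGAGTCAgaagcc
LINC00963 (chr9:129488410-129488709, plus strand): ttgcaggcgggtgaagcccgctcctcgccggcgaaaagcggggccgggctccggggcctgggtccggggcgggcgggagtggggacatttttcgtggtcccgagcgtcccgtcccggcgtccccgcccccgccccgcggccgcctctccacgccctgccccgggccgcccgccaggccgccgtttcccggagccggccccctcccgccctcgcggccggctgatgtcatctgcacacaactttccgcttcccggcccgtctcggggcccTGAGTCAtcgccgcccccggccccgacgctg
LINC01215 (chr3:108125571-108125870, plus strand): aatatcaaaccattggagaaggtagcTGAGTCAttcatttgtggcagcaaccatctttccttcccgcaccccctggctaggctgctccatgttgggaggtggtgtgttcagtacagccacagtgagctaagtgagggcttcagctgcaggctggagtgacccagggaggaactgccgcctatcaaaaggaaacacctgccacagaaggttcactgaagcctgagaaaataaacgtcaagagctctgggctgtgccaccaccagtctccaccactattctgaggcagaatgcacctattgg
LINC01358 (chr1:59020226-59020525, plus strand): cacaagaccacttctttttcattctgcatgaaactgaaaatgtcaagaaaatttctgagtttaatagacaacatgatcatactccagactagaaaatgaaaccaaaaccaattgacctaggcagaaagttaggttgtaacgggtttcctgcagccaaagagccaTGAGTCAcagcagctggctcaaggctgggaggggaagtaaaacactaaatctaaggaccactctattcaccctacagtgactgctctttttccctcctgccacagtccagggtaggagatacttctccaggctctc
LINC02384 (chr12:68451435-68451734, minus strand): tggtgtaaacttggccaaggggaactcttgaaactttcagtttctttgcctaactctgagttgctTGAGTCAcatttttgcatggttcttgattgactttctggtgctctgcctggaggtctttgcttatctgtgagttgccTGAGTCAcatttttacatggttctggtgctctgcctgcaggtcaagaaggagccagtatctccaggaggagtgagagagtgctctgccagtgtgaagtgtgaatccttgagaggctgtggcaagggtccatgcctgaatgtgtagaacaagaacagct
LINC02391 (chr12:92363783-92364082, minus strand): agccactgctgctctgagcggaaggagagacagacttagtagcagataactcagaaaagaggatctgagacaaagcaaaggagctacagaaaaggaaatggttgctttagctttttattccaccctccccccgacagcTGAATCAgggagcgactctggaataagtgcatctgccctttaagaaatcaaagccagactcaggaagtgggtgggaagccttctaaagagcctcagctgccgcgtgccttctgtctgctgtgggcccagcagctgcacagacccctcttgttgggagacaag

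Of 307 members, 172 matched a RefSeq entry by symbol, and 123 had a window within 500 bases of the start of their leading transcript. TGANTCA, which reads as the same motif on both strands, was in 12 of these 123 windows (9.76%), against 7.72% of 34943 windows of all genes. It was in 6 of the 27 windows of members that rose with PMA in at least 1 line (22.2%) and in 0 of the 6 windows of members that fell. The other members with the motif, LINC00242, LINC00987, LINC01094, LINC01262, LINC02033 and LINC02265, were not called with PMA in any line. Among members that rose in all 3 lines the motif was in 1 of 9 windows (11.1%), that of LINC01215. The cyclic AMP response motif TGACGTCA was in 2 of 123 windows (1.63%, all genes 1.84%), and the EGR motif GCGTGGGCG, searched on both strands, was in 0 of 123 (all genes 0.796%). The MEF2 motif was in 3 of 123 windows (2.44%, all genes 3%) and the NF-kB motif in 6 of 123 (4.88%, all genes 11.3%). None of these 4 other motifs was in a window of a member that rose or fell with PMA. These matches describe letters in a window and show no binding. Whether any motif has a part in the PMA response was not tested.

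Of the 6 members shown, LINC00892, LINC00963, LINC01215 and LINC02391 are described further on, and LINC01358 and LINC02384 were each called in 1 line. LINC01358 (chr1:58933643-59240555, plus strand) had 0.259, 1.89 and 0.759 TPM in PMA-treated iE9 libraries, against 0, 0 and 0.0402 TPM in unstimulated iE9 libraries, without overlap, a ratio of 24.9 (95% interval 4.06 to 1020) by counts (edgeR adjusted p = 0.0469), and passed in dE9 with the replicate block alone (edgeR adjusted p = 0.0514 without it and 0.0248 with it). LINC02384 (chr12:68332888-68451663, minus strand) had 9.89, 3.04 and 0.697 TPM in PMA-treated dE9 libraries, against 0.963, 0.158 and 0.3296 TPM in unstimulated dE9 libraries (log2 fold change 3.17 ± 1.07 (SE), edgeR adjusted p = 0.0326). For LINC02384, PMA library 3 lay under unstimulated library 1, so the ranges overlapped.

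Most members were scarce. The median of their mean levels over the 6 groups was 1.05 TPM, 27 members reached 10 TPM, and 150 stayed under 1 TPM. The threshold was met in all 6 groups by 124 members and in 1 group by 60 members. Of those 60, 25 met it in PMA-treated iE9 cells alone, 8 in unstimulated iE9 cells, 8 in PMA-treated dE9 cells, 3 in unstimulated dE9 cells, 13 in PMA-treated WT cells and 3 in unstimulated WT cells. LINC00487, LINC02207 and LINC02428 lay just inside the threshold at 0.505, 0.506 and 0.509 TPM in their highest group, and LINC00355, LINC01962 and LINC01159 just outside at 0.495, 0.497 and 0.499 TPM.

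PMA-treated libraries held more members at the threshold than unstimulated ones. A PMA-treated library had 197 to 229 members at 0.5 TPM or more, and an unstimulated library 154 to 188. The summed TPM of the members averaged 1206 ± 8.9 in PMA-treated iE9 libraries and 965.5 ± 80.6 in unstimulated iE9 libraries (SD, n = 3 each). It averaged 1082 ± 78.9 in PMA-treated dE9 libraries and 831 ± 41.5 in unstimulated dE9 libraries (SD, n = 3 each). In WT it was 1098 ± 10.1 with PMA and 862 ± 17.4 without (SD, n = 2 each). These counts and sums describe a set chosen on the same values and the same threshold, and were not tested. No share of all genes at 0.5 TPM stands beside the counts.

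LINC01578, also called CHASERR and in mouse a repressor of the neighbouring chromatin remodeller gene Chd2, was the most abundant member. It lies at chr15:92882707-92899701, plus strand. It had 43.7, 82.1 and 83.9 TPM in PMA-treated iE9 libraries, against 44.3, 56.02 and 60.9 TPM in unstimulated iE9 libraries. Levels were 56.7, 58.8 and 79.03 TPM in PMA-treated dE9 libraries, against 39.5, 42.5 and 46.4 TPM in unstimulated dE9 libraries. WT libraries had 79.2 and 63.9 TPM with PMA, against 39.3 and 38.8 TPM without. The groups overlapped only in iE9, where library 1 was low with PMA, and the change passed the test in no line (log2 fold changes 0.12 in iE9, 0.43 in dE9 and 0.55 in WT; edgeR adjusted p = 0.714, 0.141 and 0.151). With the replicate number as a block it passed in dE9 (edgeR adjusted p = 0.0203).

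The next most abundant members were LINC01089, LINC02210, LINC00339, LINC01002 and LINC01184, with means of 50.8, 43.8, 34.1, 29.4 and 29.02 TPM over the groups. After these came LINC01215, LINC00342, LINC01550 and LINC01278, with 27.2, 22.6, 21.9 and 18.6 TPM. Of these 10, only LINC01215 passed the test with PMA in any line. LINC02210 (edgeR adjusted p = 0.0547) and LINC01550 (edgeR adjusted p = 0.186) missed it in dE9 and passed it with the replicate block (edgeR adjusted p = 0.027 and 0.0472). Several of the 10 share sequence with other genes: 95.3% of the 50-base words of the leading transcript of LINC00339, 96.8% for LINC01002, 77.9% for LINC02210 and 26.5% for LINC00342 also occur in transcripts of other genes, so their levels are uncertain. For LINC01578 that share was 23.5%. Of all members, 43 shared over 25% of such words and 163 shared none. Exons of 99 members overlapped an exon of another gene, 71 of them on the other strand, and since the strandedness of the libraries is not given in the sources used here, reads of such partners cannot be told apart.

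**Figure D1:**
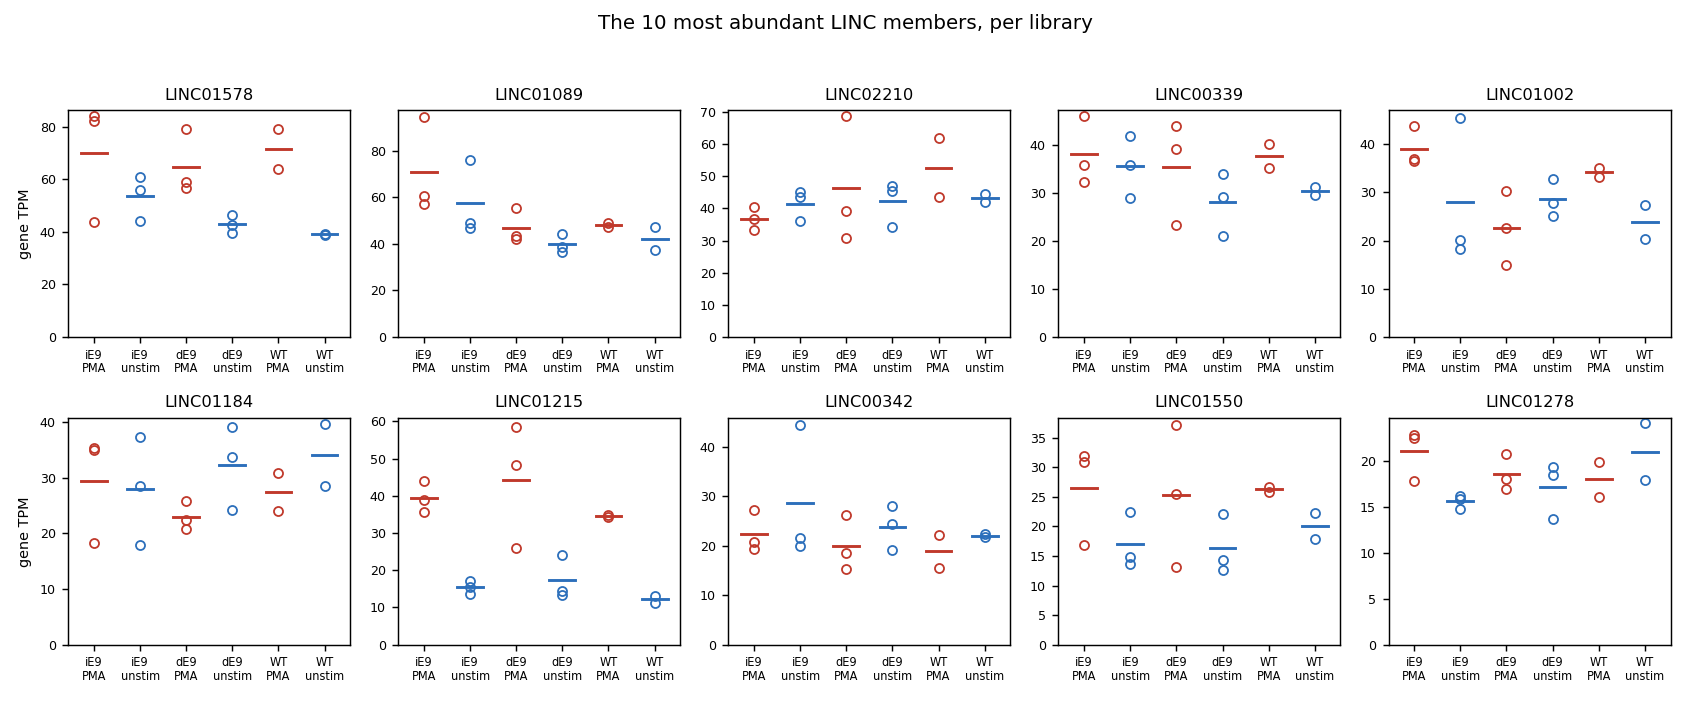
Gene TPM of the 10 most abundant LINC members in each library (open circles; red with PMA, blue unstimulated), with the group mean as a bar; axes start at 0. LINC01215 is the one panel in which PMA-treated libraries lie above unstimulated ones in all 3 lines, for example at 34.8 and 34.4 TPM in WT with PMA against 11.3 and 13.1 TPM without.

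The 5 steadiest members, by the ratio of highest to lowest group mean, were LINC01128, LINC01003, LINC00662, LINC00909 and LINC01278. LINC01128 (chr1:825138-859446, plus strand) had 15.002, 14.5 and 17.7 TPM in PMA-treated iE9 libraries, against 17.3, 17.2 and 10.2 TPM in unstimulated iE9 libraries. Its levels were 17.1, 11.7 and 13.3 TPM in PMA-treated dE9 libraries, against 14.5, 16.96 and 17.5 TPM in unstimulated dE9 libraries. WT levels were 16.8 and 14.2 TPM with PMA and 13.5 and 18.9 TPM without. PMA-treated and unstimulated libraries overlapped in each line, and none of the 5 passed the test with PMA in any line. Their steadiness is what the choice used.

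With PMA, more of the tested members rose than fell in each line. Of 307 members, 229 passed the filter on low counts and were tested among 18073 genes, and the 78 left out had means of at most 0.967 TPM. In iE9, 32 rose and 15 fell (20.5%, against 27.1% of all genes tested); in dE9, 53 rose and 10 fell (27.5%, against 33.5%); in WT, 41 rose and 8 fell (21.4%, against 22.3%). The share called was thus no higher than the background. By direction, of all genes 12.6% rose and 14.4% fell in iE9, 17.1% and 16.5% in dE9, and 11.1% and 11.3% in WT. The median log2 fold change of the members was 0.30 in iE9, 0.52 in dE9 and 0.50 in WT, against -0.01, 0.06 and 0.03 for all genes tested.

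These counts describe the set and do not test it, since a gene that met the threshold or the filter through its PMA-treated group alone had to be higher there. Among the 124 members at the threshold in all 6 groups, 13 rose and 9 fell in iE9, 18 and 7 in dE9, and 15 and 5 in WT, with median log2 fold changes of 0.06, 0.20 and 0.18. Counts of called members in WT rest on 2 libraries a group: without WT unstimulated library 1 there were 11, without WT unstimulated library 2 there were 21, and without WT PMA library 1 or 2 there were 22 and 25, against 49 with all. In iE9 29 members were called without unstimulated library 2, and 31 without both libraries numbered 1, against 47 with all.

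In all, 83 members were called with PMA in at least 1 line, 64 higher and 19 lower, and 0 were called in opposite directions in different lines. Called in the same direction in all 3 lines were 25 members, 20 higher and 5 lower. A further 26 were called in exactly 2 lines and 32 in exactly 1 line. No share of all genes called over the lines stands beside these counts, so they describe the set only.

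**Figure D2:**
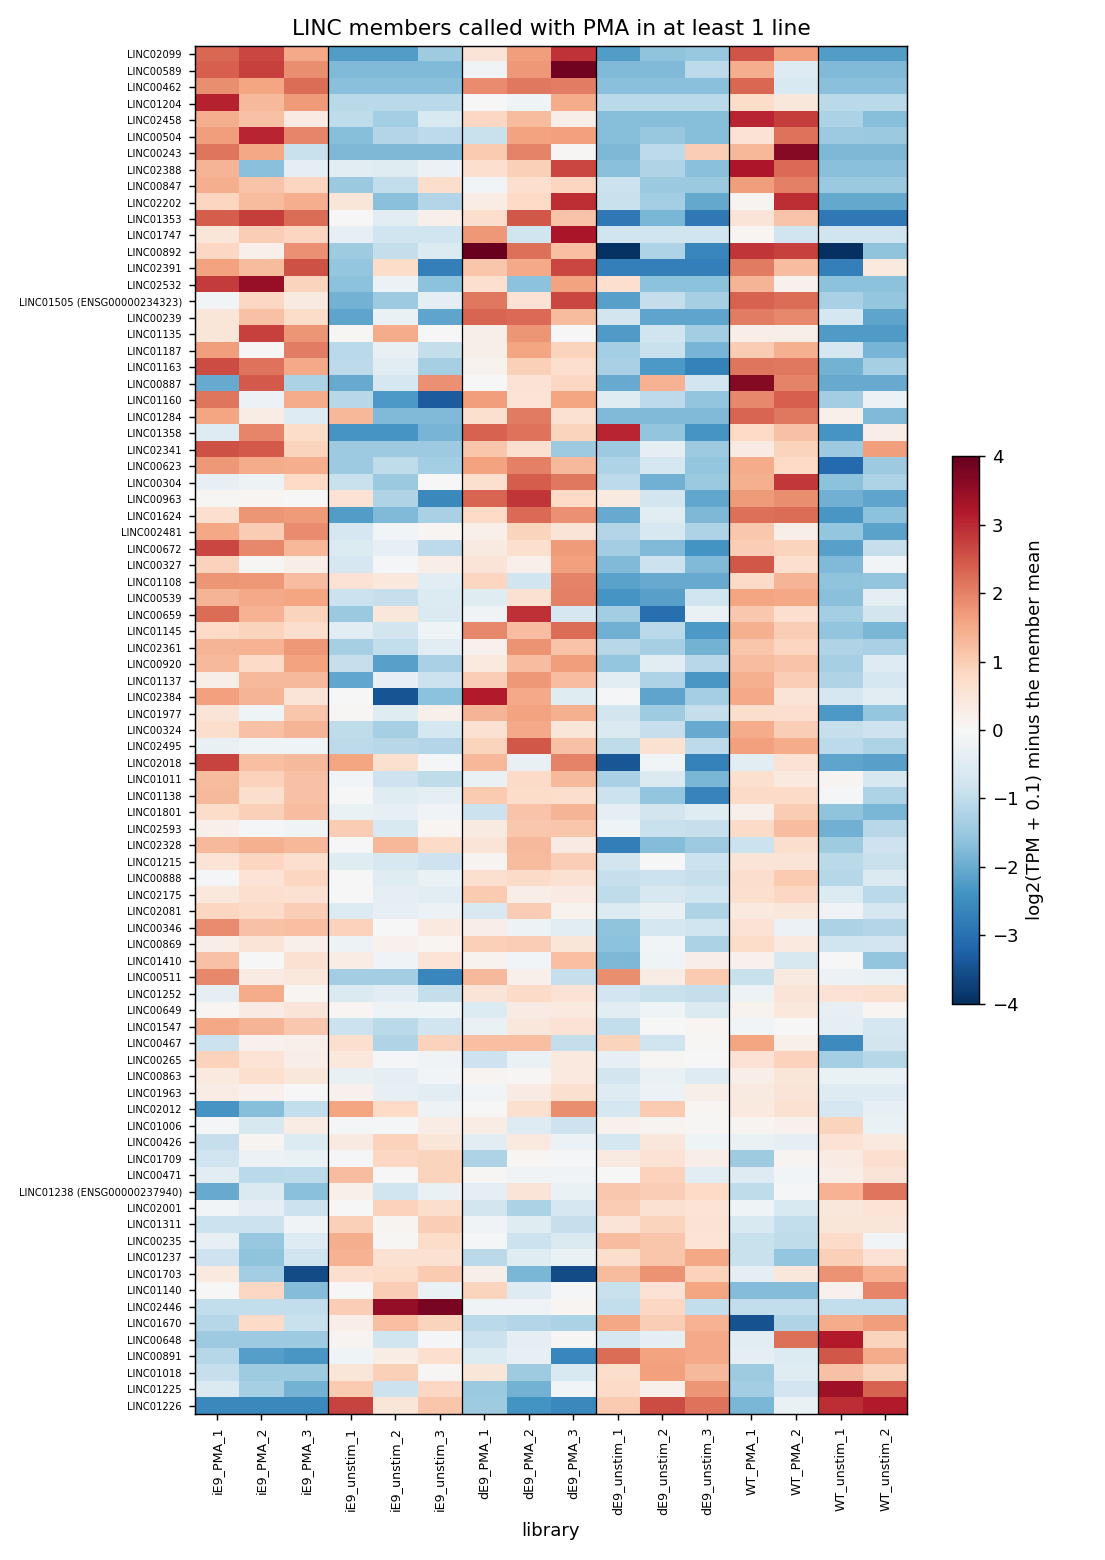
Log2(TPM + 0.1) of the 83 members called with PMA in at least 1 line, minus each member's mean over the 16 libraries, ordered by the mean fold change; columns are libraries. Rows at the top, such as LINC02099, are at or near 0 TPM without PMA in each line, and rows at the bottom, such as that of LINC01226, at most 0.395 TPM with PMA in any library, are lower with PMA.

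LINC01215 was the most abundant member that rose in all 3 lines. It lies at chr3:108125821-108138610, plus strand, with its start 33959 bases from that of CD47, which encodes a surface protein that inhibits phagocytosis. It had 35.5, 43.9 and 38.9 TPM in PMA-treated iE9 libraries, against 17.1, 15.5 and 13.7 TPM in unstimulated iE9 libraries (log2 fold change 1.17 ± 0.26 (SE), edgeR adjusted p = 0.00377). It had 26.002, 58.5 and 48.3 TPM in PMA-treated dE9 libraries, against 14.4, 24.2 and 13.2 TPM in unstimulated dE9 libraries (log2 fold change 1.35 ± 0.26 (SE), edgeR adjusted p = 0.00109). The WT libraries had 34.8 and 34.4 TPM with PMA, against 11.3 and 13.1 TPM without (log2 fold change 1.40 ± 0.32 (SE), edgeR adjusted p = 0.00628). PMA-treated libraries lay above unstimulated ones in every line, although dE9 library 1 at 26.0 TPM came close to unstimulated library 2 at 24.2 TPM. The WT call was lost without WT unstimulated library 1 (edgeR adjusted p = 0.0742).

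LINC00324, which lies 13443 bases from the start of the mitotic kinase gene AURKB (chr17:8220642-8224043, minus strand), rose by nearly the same fold in each line. Levels were 3.71, 5.21 and 5.93 TPM in PMA-treated iE9 libraries, against 1.05, 0.837 and 1.35 TPM in unstimulated iE9 libraries (log2 fold change 2.05 ± 0.42 (SE), edgeR adjusted p = 0.00261). They were 3.53, 6.58 and 3.203 TPM in PMA-treated dE9 libraries, against 1.47, 1.14 and 0.486 TPM in unstimulated dE9 libraries (log2 fold change 2.04 ± 0.42 (SE), edgeR adjusted p = 0.00192). In WT they were 6.43 and 4.51 TPM with PMA and 1.15 and 1.23 TPM without (log2 fold change 2.06 ± 0.52 (SE), edgeR adjusted p = 0.0109). No PMA-treated library fell within the unstimulated range. Leaving out WT unstimulated library 1, WT unstimulated library 2 or WT PMA library 1 ended the WT call (edgeR adjusted p up to 0.0903).

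The 8 members with the largest smallest fitted fold over the lines were LINC02099, LINC00462, LINC00504, LINC00847, LINC02458, LINC01163, LINC00623 and LINC01160. LINC02099 was almost silent without PMA. It had 2.22, 2.95 and 1.26 TPM in PMA-treated iE9 libraries, against 0, 0 and 0.0785 TPM in unstimulated iE9 libraries, a ratio of 88.7 (95% interval 24.2 to 738) by counts, where intervals cover counting error only. It had 0.584, 1.43 and 3.45 TPM in PMA-treated dE9 libraries, against 0, 0.0542 and 0.0675 TPM in unstimulated dE9 libraries (log2 fold change 5.39 ± 0.95 (SE), edgeR adjusted p = 0.000813). In WT it had 2.59 and 1.39 TPM with PMA and was at 0 in both unstimulated libraries. Its PMA group mean was at least 19.2-fold over a floor of 3 counts per library (edgeR adjusted p = 0.00216). Such bounds below also use group means, and single libraries can lie closer to the floor.

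LINC01163, a neighbour of the proliferation marker gene MKI67 at a start distance of 54647 bases (chr10:128181032-128317726, plus strand), was low but detected in every library. It had 5.07, 3.702 and 2.299 TPM in PMA-treated iE9 libraries, against 0.307, 0.522 and 0.233 TPM in unstimulated iE9 libraries (log2 fold change 2.89 ± 0.55 (SE), edgeR adjusted p = 0.00157). Levels were 0.826, 1.53 and 1.23 TPM in PMA-treated dE9 libraries, against 0.245, 0.0708 and 0.0283 TPM in unstimulated dE9 libraries (log2 fold change 3.06 ± 0.60 (SE), edgeR adjusted p = 0.00143). WT libraries held 3.58 and 3.56 TPM with PMA and 0.128 and 0.233 TPM without (log2 fold change 3.58 ± 0.72 (SE), edgeR adjusted p = 0.00308). The groups did not overlap in any line. The WT call was lost without WT unstimulated library 1 (edgeR adjusted p = 0.0528).

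LINC00462 starts within the span of the tumour suppressor gene RB1 (chr13:48576974-48578088, minus strand) and was at 0 in all 8 unstimulated libraries. With PMA it had 1.07, 0.855 and 1.42 TPM in iE9, 1.08, 1.29 and 1.21 TPM in dE9 and 1.47 and 0.108 TPM in WT. Against a floor of 3 counts per library it was at least 3.26-fold higher in iE9, at least 3.96-fold higher in dE9 and at least 2.25-fold higher in WT (edgeR adjusted p = 0.0113, 0.00695 and 0.049). The WT call was lost in 11 of the 16 fits without 1 library (edgeR adjusted p up to 0.366).

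LINC00504 (chr4:14470465-14888169, minus strand) and LINC02458 (chr12:89010681-89019679, minus strand) were also near 0 without PMA. LINC00504 had 0.952, 2.61 and 1.17 TPM in PMA-treated iE9 libraries, against 0, 0.0437 and 0.0587 TPM in unstimulated iE9 libraries (log2 fold change 5.24 ± 0.96 (SE), edgeR adjusted p = 0.00119). In dE9 it had 0.0758, 0.902 and 0.911 TPM with PMA and 0, 0.0144 and 0 TPM without, a ratio of 101 (95% interval 17.8 to 4040) by counts. LINC02458 had 2.59 and 2.13 TPM in PMA-treated WT libraries, against 0.0363 and 0 TPM in unstimulated WT libraries, a ratio of 127 (95% interval 22.5 to 5060) by counts. With PMA it had 0.796, 0.638 and 0.314 TPM in iE9 and 0.477, 0.6797 and 0.281 TPM in dE9, above every unstimulated library of the same line. LINC02458 lost its iE9 call without iE9 unstimulated library 2 (edgeR adjusted p = 0.055), and LINC00504 its WT call without either WT unstimulated library or WT PMA library 2 (edgeR adjusted p up to 0.1).

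LINC00623 and LINC01160 share sequence with other genes, 83.6% and 39.0% of their 50-base words, so their values may hold reads of those genes. LINC00623 had 11.6, 9.57 and 9.39 TPM in PMA-treated iE9 libraries, against 1.17, 1.63 and 1.26 TPM in unstimulated iE9 libraries (log2 fold change 2.73 ± 0.42 (SE), edgeR adjusted p = 0.000348). It had 10.5, 13.99 and 8.52 TPM in PMA-treated dE9 libraries, against 1.39, 2.04 and 1.09 TPM in unstimulated dE9 libraries (log2 fold change 2.79 ± 0.42 (SE), edgeR adjusted p = 0.000201). WT cells had 9.73 and 6.02 TPM with PMA and 0.303 and 1.18 TPM without (log2 fold change 3.19 ± 0.55 (SE), edgeR adjusted p = 0.0012). In each line the lowest PMA-treated library was well above the highest unstimulated one. LINC01160, within the span of RAP1A, had log2 fold changes of 3.68 in iE9, 2.61 in dE9 and 3.16 in WT, and its dE9 and WT calls were lost in fits without 1 unstimulated library of dE9 (numbers 2 or 3) or any 1 WT library (edgeR adjusted p up to 0.0736 and 0.207).

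LINC00847 rests on few counts and overlaps HEIH, another long noncoding RNA, on the other strand. It had 0.786 and 1.04 TPM in PMA-treated WT libraries, against 0 and 0 TPM in unstimulated WT libraries, at least 4.29-fold higher against the floor. In iE9 it passed at an edgeR adjusted p of 0.0313 and in dE9 at 0.0194. With the replicate block neither passed (edgeR adjusted p = 0.0661 and 0.0574). Its calls were also lost in 6 iE9, 2 dE9 and 3 WT fits without 1 library.

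Among the other members that rose in all 3 lines, chosen here after their values were seen, LINC02361 and LINC00539 reached the highest levels. LINC02361 (chr12:132186735-132189695, minus strand) had 23.8, 24.5 and 31.04 TPM in PMA-treated iE9 libraries, against 3.61, 4.597 and 6.73 TPM in unstimulated iE9 libraries (log2 fold change 2.29 ± 0.38 (SE), edgeR adjusted p = 0.000653). LINC00539 (chr13:21303515-21348721, minus strand) had 15.3, 16.9 and 17.8 TPM in PMA-treated iE9 libraries, against 3.19, 3.098 and 4.04 TPM in unstimulated iE9 libraries (log2 fold change 2.21 ± 0.56 (SE), edgeR adjusted p = 0.00917). Both were higher in every PMA-treated library than in any unstimulated library of the same line. LINC00672, which GENCODE release 29 types as protein coding, rose with log2 fold changes of 2.62 ± 0.49 in iE9, 3.11 ± 0.52 in dE9 and 2.47 ± 0.62 in WT (SE).

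**Figure D3:**
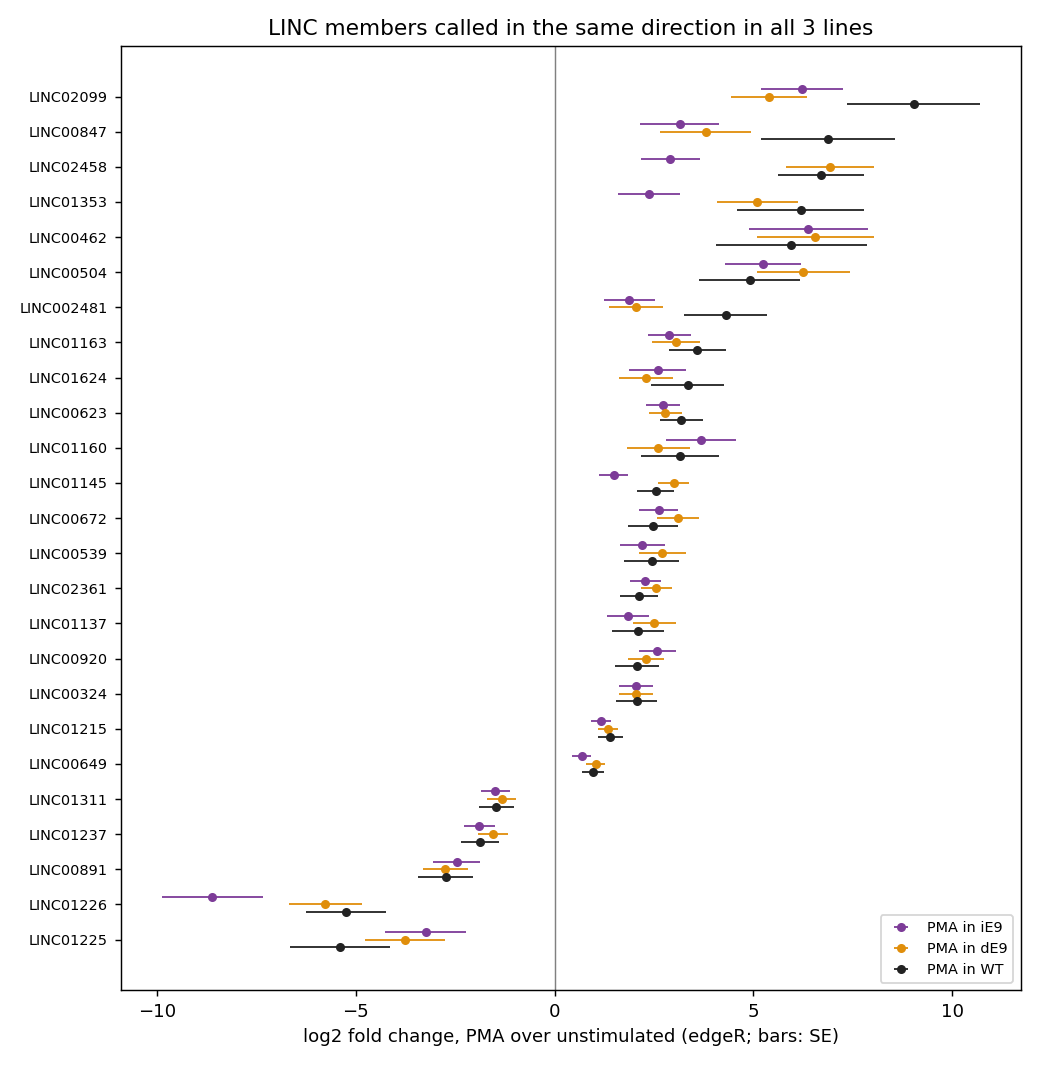
Log2 fold change of PMA over unstimulated in iE9, dE9 and WT (points; bars are SE from edgeR) for the 25 members called in the same direction in all 3 lines. The 20 members at the top lie right of 0 and the 5 at the bottom left of it in each line; fitted values of members at 0 in a group, such as LINC02099 in WT, depend on the prior count and are no bound.

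The 5 members that fell in all 3 lines were LINC01226, LINC01225, LINC00891, LINC01237 and LINC01311. LINC01226 and LINC01225 overlap each other on the plus strand of chromosome 1, and LINC01226 also overlaps TINAGL1, so reads may be shared. LINC01226 (chr1:31506226-31583306, plus strand) was at 0 in all 3 PMA-treated iE9 libraries, against 3.83, 0.736 and 1.202 TPM in unstimulated iE9 libraries, at least 14.9-fold lower against the floor (edgeR adjusted p = 0.000425). It had 0.125, 0.0132 and 0 TPM in PMA-treated dE9 libraries, against 1.13, 3.55 and 2.59 TPM in unstimulated dE9 libraries, a ratio of 64.5 (95% interval 21.7 to 316) of unstimulated to PMA by counts. In WT it had 0.0678 and 0.395 TPM with PMA, against 4.59 and 5.26 TPM without (log2 fold change -5.24 ± 0.998 (SE), edgeR adjusted p = 0.00306). Every PMA-treated library was under every unstimulated library of its line. LINC01225, annotated as a transcribed unitary pseudogene, fell alongside it, with 3 counts or fewer in each PMA-treated group, and its calls were lost without 1 library in 4 iE9, 1 dE9 and 2 WT fits (edgeR adjusted p up to 0.0961).

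LINC01237, the most abundant of the 5, lies at chr2:241881363-242078722, plus strand. It had 5.58, 3.22 and 5.69 TPM in PMA-treated iE9 libraries, against 26.5, 15.3 and 15.2 TPM in unstimulated iE9 libraries (log2 fold change -1.89 ± 0.39 (SE), edgeR adjusted p = 0.00272). It had 4.71, 7.16 and 8.397 TPM in PMA-treated dE9 libraries, against 16.4, 21.7 and 29.6 TPM in unstimulated dE9 libraries (log2 fold change -1.55 ± 0.38 (SE), edgeR adjusted p = 0.00603). WT levels were 5.397 and 3.35 TPM with PMA, against 19.7 and 15.2 TPM without (log2 fold change -1.87 ± 0.48 (SE), edgeR adjusted p = 0.0127). The groups were far apart in each line, and the WT call was lost without WT unstimulated library 1 or WT PMA library 2 (edgeR adjusted p up to 0.141).

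LINC00891 (chrX:71697196-71706455, plus strand) had lower levels in iE9 than in the other lines without PMA, a difference that did not pass (edgeR adjusted p = 0.199 over dE9 and 0.15 over WT). It had 0.847, 0.3598 and 0.318 TPM in PMA-treated iE9 libraries, against 1.75, 2.501 and 3.21 TPM in unstimulated iE9 libraries (log2 fold change -2.46 ± 0.59 (SE), edgeR adjusted p = 0.00668). It had 1.34, 1.57 and 0.243 TPM in PMA-treated dE9 libraries, against 9.66, 6.29 and 5.87 TPM in unstimulated dE9 libraries (log2 fold change -2.74 ± 0.57 (SE), edgeR adjusted p = 0.00195). The WT libraries had 1.48 and 1.33 TPM with PMA and 11.7 and 5.72 TPM without (log2 fold change -2.74 ± 0.69 (SE), edgeR adjusted p = 0.0116). LINC01311, an antisense RNA whose start is 7435 bases from that of the mitochondrial citrate carrier gene SLC25A1, had log2 fold changes of -1.49 ± 0.36 in iE9, -1.33 ± 0.36 in dE9 and -1.46 ± 0.44 in WT (SE). The WT call of LINC00891 was lost without WT unstimulated library 1 or either WT PMA library (edgeR adjusted p up to 0.112), and that of LINC01311 without any 1 WT library (edgeR adjusted p up to 0.189).

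In iE9, the largest fitted rises beyond those above were LINC00589, LINC01204, LINC02341 and LINC00243, all at 0 in the 3 unstimulated iE9 libraries. Fitted folds over 0 depend on the prior count, so this order is not one by counts. LINC00589 had 1.69, 2.13 and 1.12 TPM with PMA, at least 7.13-fold higher against the floor (edgeR adjusted p = 0.00644). LINC01204 had 1.66, 0.4201 and 0.579 TPM with PMA, at least 5.41-fold higher (edgeR adjusted p = 0.00521). Both also rose in dE9, LINC00589 to 0.2098, 1.02 and 4.77 TPM and LINC01204 to 0.109, 0.0877 and 0.482 TPM with PMA, and LINC01204 did not pass there with the replicate block (edgeR adjusted p = 0.0636). LINC02341 was at least 3.38-fold higher and LINC00243 at least 1.51-fold higher in iE9, and each lost its call without iE9 unstimulated library 2 (edgeR adjusted p = 0.0558 and 0.0579).

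LINC02446, LINC00648, LINC01018 and LINC02012 had the largest fitted falls in iE9 after LINC01226, an order that likewise depends on the prior count. LINC02446 was at 0 in the 3 PMA-treated iE9 libraries, against 0.288, 2.17 and 2.67 TPM in unstimulated iE9 libraries, at least 5.67-fold lower (edgeR adjusted p = 0.0105). In the other lines it was at 0 or at most 0.251 TPM in each library. LINC02012 had 0, 0.0586 and 0.1596 TPM in PMA-treated iE9 libraries, against 1.44, 0.796 and 0.349 TPM in unstimulated iE9 libraries (log2 fold change -3.54 ± 0.94 (SE), edgeR adjusted p = 0.0118), with no overlap. LINC00648 was at 0 in PMA-treated iE9 libraries, against 0.193, 0.0581 and 0.156 TPM in unstimulated ones, at least 1.31-fold lower, and this call was lost in 5 fits without 1 iE9 library (edgeR adjusted p up to 0.0691). LINC01018 had 0.0395, 0 and 0 TPM in PMA-treated iE9 libraries, against 0.271, 0.4204 and 0.177 TPM in unstimulated iE9 libraries, and its iE9 and dE9 calls each were lost in 3 fits without 1 library of their own line (edgeR adjusted p up to 0.0732 and 0.0745).

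In dE9, LINC00892 and LINC02391 were the other members with the largest fitted rises. LINC02391 had 1.33, 1.795 and 4.09 TPM with PMA and was at 0 in all 3 unstimulated dE9 libraries, at least 6.31-fold higher against the floor (edgeR adjusted p = 0.00538). It did not pass in iE9 or WT, where an unstimulated library held 0.997 TPM in iE9 and 0.776 TPM in WT. Of the members that fell in dE9, LINC01670 had 1.17, 1.09 and 1.02 TPM in PMA-treated dE9 libraries, against 7.77, 5.16 and 6.88 TPM in unstimulated dE9 libraries (log2 fold change -2.53 ± 0.60 (SE), edgeR adjusted p = 0.00477) and LINC01703 had 1.28, 0.231 and 0 TPM in PMA-treated dE9 libraries, against 2.78, 4.06 and 2.13 TPM in unstimulated dE9 libraries (log2 fold change -2.58 ± 0.93 (SE), edgeR adjusted p = 0.0451). In WT LINC01670 also fell, to 0.139 and 1.05 TPM with PMA, against 7.43 and 8.46 TPM without (log2 fold change -4.004 ± 0.81 (SE), edgeR adjusted p = 0.00321). All the 50-base words of LINC01670 occur in other genes too, and the LINC01703 call was lost in 13 fits without 1 library (edgeR adjusted p up to 0.137).

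In WT, LINC02388, LINC00887 and LINC02202 were at 0 in both unstimulated libraries. LINC02388 had 2.94 and 1.44 TPM with PMA, at least 10.4-fold higher against the floor (edgeR adjusted p = 0.00801), and rose in dE9 as well, with 0.414, 0.514 and 1.93 TPM in PMA-treated dE9 libraries, against 0, 0.0385 and 0 TPM in unstimulated dE9 libraries. LINC00887 had 4.97 and 1.5004 TPM with PMA in WT, at least 6.25-fold higher (edgeR adjusted p = 0.0361). In the edited lines LINC00887 overlapped between treatments and did not pass. Calls in WT were lost for LINC02388 without either unstimulated library (edgeR adjusted p up to 0.07) and for LINC00887 without any 1 of the 4 WT libraries (edgeR adjusted p up to 0.171). LINC01140 fell in WT to 0 in both PMA-treated libraries, against 0.277 and 1.21 TPM, at least 2.85-fold lower (edgeR adjusted p = 0.0463), and was lost in 11 fits without 1 library (edgeR adjusted p up to 0.192).

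Fewer members were called between lines than with PMA. In iE9 over dE9 with PMA, 1 member was higher and 2 were lower (1.31% of 229). Of all genes tested, 2.61% were called there, 1.1% higher and 1.51% lower. Without PMA, 3 members were higher and 1 was lower (1.75%, against 1.72% of all genes, 0.957% higher and 0.764% lower). DESeq2 called 9 members with PMA and 8 without in iE9 over dE9, against 1280 and 836 of 18073 genes. In iE9 over WT, 0 members were called with PMA (all genes 1.12%, 0.332% higher and 0.791% lower) and 2 were higher without (0.873%, against 1.38%, 0.675% higher and 0.703% lower). With PMA, 29 of 229 members had an unadjusted p under 0.05 in that comparison, against 2562 of 18073 genes. DESeq2 called 5 members with PMA and 13 without, against 696 and 824 genes. In dE9 over WT, edgeR called 0 members with PMA and 0 without (all genes 0% each). Unadjusted p was under 0.05 for 7 and 6 members, against 459 and 560 of 18073 genes. DESeq2 called 0 members, against 8 and 20 genes.

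LINC01748 was higher in iE9 than in the other lines in both treatments. It lies at chr1:60515716-60640491, minus strand, and its start is 224768 bases from that of NFIA, which encodes a transcription factor of the nuclear factor I family. With PMA it had 4.83, 2.82 and 3.02 TPM in iE9, 0.0501, 0.103 and 0.0505 TPM in dE9 and 0.569 and 0.334 TPM in WT. Without PMA it had 3.68, 2.51 and 2.35 TPM in iE9, 0, 0.0394 and 0.318 TPM in dE9 and 0.264 and 0.1598 TPM in WT. Every iE9 library was above every library of the other lines. Over dE9 the difference passed with PMA (log2 fold change 5.67 ± 0.83 (SE), edgeR adjusted p = 0.00303) and without (log2 fold change 4.77 ± 0.78 (SE), edgeR adjusted p = 0.00697). Over WT it passed without PMA (log2 fold change 4.15 ± 0.89 (SE), edgeR adjusted p = 0.0353), a call lost in 8 fits without 1 library (edgeR adjusted p up to 0.363), and not with PMA (edgeR adjusted p = 0.0865).

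LINC01876 was lower in iE9 than in dE9 in both treatments. It lies at chr2:156011530-156254950, minus strand, 87398 bases by start from NR4A2, which encodes an orphan nuclear receptor, and was at 0 in all 6 iE9 libraries. With PMA it had 0.749, 0.521 and 2.55 TPM in dE9 and 1.72 and 0.388 TPM in WT. Without PMA it had 3.64, 0.354 and 2.38 TPM in dE9 and 0.932 and 1.52 TPM in WT. In iE9 it was at least 4.65-fold lower than in dE9 with PMA and at least 5.93-fold lower without (edgeR adjusted p = 0.0482 and 0.0477). These calls were lost in 12 fits with PMA and 11 without PMA when 1 library was left out (edgeR adjusted p up to 0.129 and 0.142). Over WT neither passed (edgeR adjusted p = 0.158 with PMA and 0.0977 without).

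LINC02328 and LINC01108 were higher in unstimulated iE9 than in unstimulated dE9 cells and rose with PMA in dE9. LINC02328 (chr14:85934710-86129778, plus strand) had 2.65, 6.75 and 4.48 TPM in unstimulated iE9 and 0.293, 0.714 and 0.888 TPM in unstimulated dE9 libraries (log2 fold change 2.85 ± 0.59 (SE), edgeR adjusted p = 0.0269). With PMA it had 6.54, 7.17 and 6.76 TPM in iE9 and 3.78, 6.53 and 3.32 TPM in dE9, where the lowest iE9 library was just above the highest dE9 library. LINC01108 (chr6:14280127-14285454, minus strand) had 1.31, 1.14 and 0.576 TPM in unstimulated iE9 and 0.112, 0.129 and 0.129 TPM in unstimulated dE9 libraries (log2 fold change 2.85 ± 0.64 (SE), edgeR adjusted p = 0.0369). These line differences were lost in 5 fits for LINC02328 and in 12 fits for LINC01108 without 1 library (edgeR adjusted p up to 0.0956 and 0.134).

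Both passed with PMA in dE9, LINC02328 with 3.78, 6.53 and 3.32 TPM in PMA-treated dE9 libraries, against 0.293, 0.714 and 0.888 TPM in unstimulated dE9 libraries (log2 fold change 2.76 ± 0.59 (SE), edgeR adjusted p = 0.00237) and LINC01108 with 1.58, 0.438 and 3.59 TPM in PMA-treated dE9 libraries, against 0.112, 0.129 and 0.129 TPM in unstimulated dE9 libraries (log2 fold change 3.73 ± 0.64 (SE), edgeR adjusted p = 0.000541). In iE9 their fold changes did not pass (0.40 ± 0.51 and 1.08 ± 0.54, log2 with SE; edgeR adjusted p = 0.609 and 0.155), although LINC01108 did with the replicate block (edgeR adjusted p = 0.0245). The difference between the responses did not pass for either, as stated below for all members.

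LINC00963 was lower in iE9 than in dE9 with PMA. It lies at chr9:129483451-129513686, plus strand, and its window with an AP-1 motif is printed above. With PMA it had 1.65, 1.6998 and 1.61 TPM in iE9 and 8.47, 12.2 and 2.83 TPM in dE9 (log2 fold change -2.61 ± 0.64 (SE), edgeR adjusted p = 0.043). WT libraries had 5.44 and 6.12 TPM with PMA, against 0.347 and 0.293 TPM without (log2 fold change 4.25 ± 0.89 (SE), edgeR adjusted p = 0.00404). It also rose with PMA in dE9, where unstimulated libraries had 2.08, 0.923 and 0.30001 TPM (log2 fold change 2.80 ± 0.64 (SE), edgeR adjusted p = 0.0039), and did not pass in iE9 (log2 fold change 1.23 ± 0.65 (SE), edgeR adjusted p = 0.177). The line difference was lost in 10 fits without 1 library (edgeR adjusted p up to 0.157), and the WT call without WT unstimulated library 2 (edgeR adjusted p = 0.0516).

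LINC00643, a transcribed unitary pseudogene at chr14:62114353-62130962, plus strand, was higher in unstimulated iE9 than in unstimulated WT cells. It had 7.51, 3.24 and 2.69 TPM in unstimulated iE9 libraries, against 0 and 0.187 TPM in unstimulated WT libraries, a ratio of 181 (95% interval 32.2 to 7170) by counts (edgeR adjusted p = 0.0238). Unstimulated dE9 libraries had 0.632, 2.38 and 0.131 TPM, overlapping WT. With PMA, iE9 libraries had 2.98, 1.55 and 0.626 TPM, a difference from unstimulated iE9 that passed only with the replicate block (edgeR adjusted p = 0.0636 without it and 0.0191 with it). The call was lost without either WT unstimulated library or iE9 unstimulated library 1 or 3 (edgeR adjusted p up to 0.306).

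**Figure D4:**
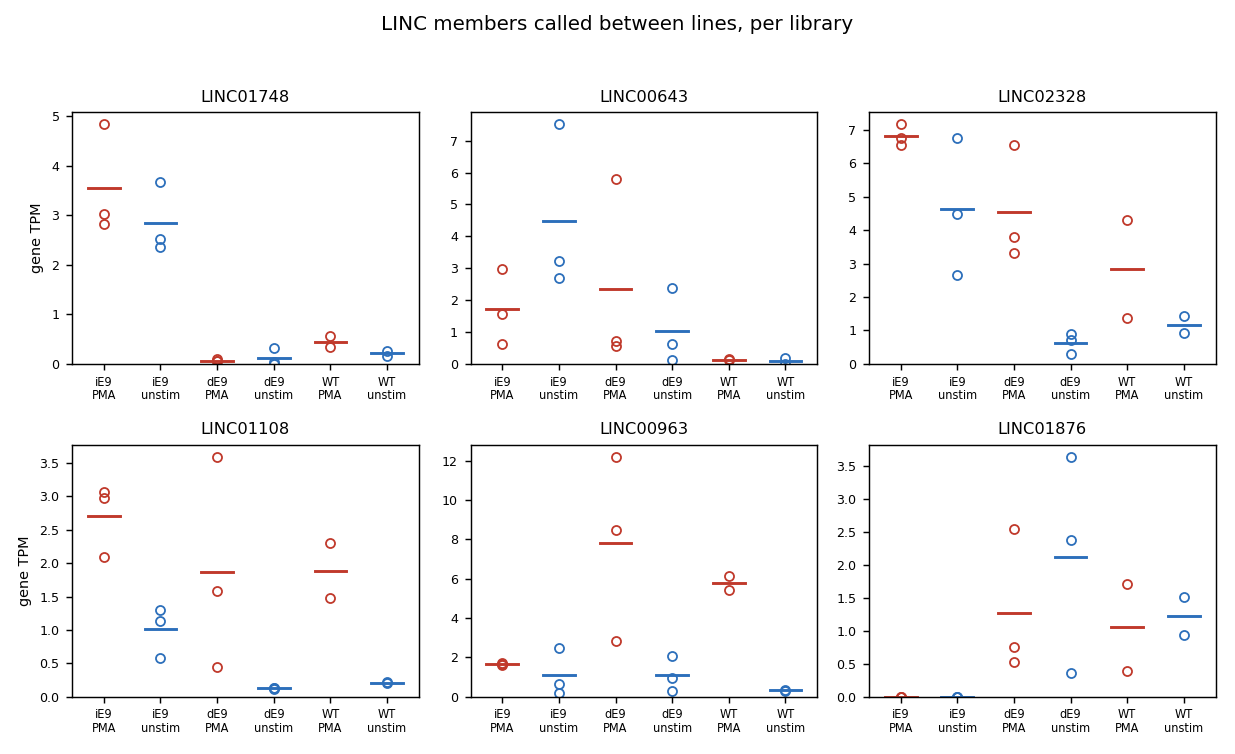
Gene TPM of the 6 members called between lines, per library (open circles; red with PMA, blue unstimulated), with group means as bars; axes start at 0. LINC01748 lies at 2.35 to 4.83 TPM in iE9 and at most 0.569 TPM elsewhere, and LINC01876 is at 0 in all 6 iE9 libraries.

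Of the named calls above, several did not hold under another scaling or without the iE9 libraries numbered 1. With an offset for effective transcript length, calls with PMA were lost for LINC00243, LINC00648, LINC01225 and LINC00847 in iE9, for LINC01018 and LINC01703 in dE9, and for LINC00462, LINC00887, LINC01140, LINC01160, LINC01311 and LINC00467 in WT. The calls between lines of LINC01876, LINC00963 and LINC00643 and that of LINC01748 over WT were lost as well. Without both iE9 libraries numbered 1, calls with PMA in iE9 were lost for LINC00243, LINC00648, LINC02012, LINC01225, LINC00847, LINC02458, LINC00649 and LINC00511. Between lines, those of LINC01876, LINC00963, LINC01108 and LINC00643 and that of LINC01748 over WT were lost.

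No member passed the test of a difference in the PMA response between lines. EdgeR called 0 of 229 in each of the 3 differences (all genes 0% each). Unadjusted p was under 0.05 for 22 members in iE9 against dE9, 22 in iE9 against WT and 8 in dE9 against WT. Of 18073 genes, 1239, 1022 and 282 had such a p. DESeq2 called 0 members in each, against 114, 59 and 1 of all genes. Members called with PMA in 1 line and not in another are therefore not shown to respond differently.

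Members were close to protein-coding genes more often than the other LINC genes. The start of 38 of 307 members (12.4%) was within 1 kb of the nearest protein-coding start, against 29 of 1584 other LINC genes (1.83%), and of those 38, 24 were divergent. Within 10 kb it was 66 members (21.5%), against 110 others (6.94%). The median distance was 44818 bases for members and 113390 bases for other LINC genes. Membership rests on TPM, and exons of 99 members overlapped an exon of another gene. Whether reads of such genes brought members over the threshold was not tested. Of the members, 94 have 1 annotated transcript.

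In 52 pairs with starts within 10 kb, both the member and its neighbour were tested. Of these 52 pairs, the member was called with PMA in 9 in iE9, 12 in dE9 and 9 in WT. The neighbour was called in 14, 13 and 10. Among all genes tested, the share called was 27.1% in iE9, 33.5% in dE9 and 22.3% in WT. Both were called with PMA in the same direction in 1 pair in iE9, 3 in dE9 and 3 in WT, and in opposite directions in 1 pair in each line. Whether both were called together more often than unrelated calls would be was not tested. Across the pairs, the log2 fold changes of member and neighbour had a Pearson r of 0.34 in iE9, 0.61 in dE9 and 0.48 in WT, as a description over pairs that share libraries.

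LINC00892 lies 8650 bases by start from CD40LG, on the same strand of chromosome X (chrX:136639543-136642429, plus strand). CD40LG encodes CD40 ligand, the surface protein with which activated T cells stimulate B cells. LINC00892 had 81.3, 11.2 and 5.57 TPM in PMA-treated dE9 libraries, against 0.0595, 0.951 and 0.302 TPM in unstimulated dE9 libraries (log2 fold change 6.18 ± 1.08 (SE), edgeR adjusted p = 0.000629), and dE9 PMA library 1 was far above the other 2. In WT, levels were 17.7 and 16.3 TPM with PMA and 0 and 0.701 TPM without (log2 fold change 4.55 ± 1.26 (SE), edgeR adjusted p = 0.0184). It had 4.203, 2.74 and 8.62 TPM in PMA-treated iE9 libraries, against 0.806, 1.16 and 1.57 TPM in unstimulated iE9 libraries, which did not overlap but did not pass (log2 fold change 1.89 ± 0.93 (SE), edgeR adjusted p = 0.149). The WT call was lost without WT unstimulated library 1 or either WT PMA library (edgeR adjusted p up to 0.14).

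CD40LG rose in all 3 lines. It had 351, 208 and 200.4 TPM in PMA-treated iE9 libraries, against 9.502, 5.57 and 15.99 TPM in unstimulated iE9 libraries (log2 fold change 4.46 ± 0.52 (SE), edgeR adjusted p = 3.98e-05). It had 141, 95.04 and 81.1 TPM in PMA-treated dE9 libraries, against 6.76, 2.13 and 1.47 TPM in unstimulated dE9 libraries (log2 fold change 4.93 ± 0.54 (SE), edgeR adjusted p = 1.96e-05). WT cells had 138 and 157 TPM with PMA and 2.59 and 3.3000 TPM without (log2 fold change 5.52 ± 0.68 (SE), edgeR adjusted p = 0.000134). With PMA, the 3 iE9 libraries had the highest CD40LG levels of all, whereas for LINC00892 iE9 and dE9 overlapped and every iE9 library was under WT.

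LINC01137 starts 141 bases from ZC3H12A, on the opposite strand of a divergent pair (chr1:37454879-37474411, minus strand). ZC3H12A encodes Regnase-1, an endoribonuclease that degrades messenger RNAs of inflammation. The pair was called higher in all 3 lines. LINC01137 had 3.61, 7.65 and 7.56 TPM in PMA-treated iE9 libraries, against 0.636, 2.39 and 1.62 TPM in unstimulated iE9 libraries (log2 fold change 1.86 ± 0.53 (SE), edgeR adjusted p = 0.0176), and ZC3H12A had 13.5, 7.95 and 12.98 TPM in PMA-treated iE9 libraries, against 5.81, 5.36 and 4.88 TPM in unstimulated iE9 libraries (log2 fold change 0.76 ± 0.20 (SE), edgeR adjusted p = 0.0109). LINC01137 had 6.16, 10.4 and 7.199 TPM in PMA-treated dE9 libraries, against 2.22, 1.24 and 0.524 TPM in unstimulated dE9 libraries (log2 fold change 2.51 ± 0.54 (SE), edgeR adjusted p = 0.00254), and ZC3H12A had 8.64, 10.1 and 9.02 TPM in PMA-treated dE9 libraries, against 4.01, 4.99 and 3.502 TPM in unstimulated dE9 libraries (log2 fold change 1.07 ± 0.20 (SE), edgeR adjusted p = 0.000919). In WT the log2 fold changes were 2.09 ± 0.65 for LINC01137 and 0.82 ± 0.24 for ZC3H12A (SE; edgeR adjusted p = 0.0326 and 0.0248).

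LINC01135 and LINC02202 are divergent from transcription factor genes, and each pair was called together in 1 line. LINC01135 (chr1:58785128-58901105, plus strand) starts 801 bases from JUN, an AP-1 subunit, and had 0.476 and 0.462 TPM in PMA-treated WT libraries, against 0 and 0 TPM in unstimulated WT libraries, at least 3.12-fold higher against the floor, while JUN had 15.9 and 14.3 TPM in PMA-treated WT libraries, against 6.55 and 5.75 TPM in unstimulated WT libraries (log2 fold change 1.16 ± 0.40 (SE), edgeR adjusted p = 0.0491). In dE9 LINC01135 passed (log2 fold change 3.05 ± 0.96 (SE), edgeR adjusted p = 0.0253) and JUN did not (log2 fold change 0.77 ± 0.32 (SE), edgeR adjusted p = 0.0812). In iE9 neither passed, and JUN had 7.74, 10.4 and 9.62 TPM in PMA-treated iE9 libraries, against 16.9, 13.9 and 9.06 TPM in unstimulated iE9 libraries. LINC02202 (chr5:159100483-159117478, plus strand) starts 722 bases from EBF1, a transcription factor of the B lineage, and had 0.409, 0.616 and 3.09 TPM in PMA-treated dE9 libraries, against 0.124, 0.0589 and 0 TPM in unstimulated dE9 libraries, a ratio of 25.9 (95% interval 8.58 to 128) by counts (edgeR adjusted p = 0.00463), while EBF1 had 1.29, 1.67 and 2.91 TPM in PMA-treated dE9 libraries, against 0.755, 1.01 and 1.004 TPM in unstimulated dE9 libraries (log2 fold change 1.41 ± 0.34 (SE), edgeR adjusted p = 0.00549). LINC02202 in WT was at 0 without PMA and at least 5.85-fold higher with it, a call lost without either WT unstimulated library or WT PMA library 2 (edgeR adjusted p up to 0.0845).

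LINC02495 and JAKMIP1, with starts 142 bases apart and divergent, went in opposite directions. LINC02495, named here after its values were seen (chr4:6200733-6239937, plus strand), had 2.14, 6.58 and 2.61 TPM in PMA-treated dE9 libraries, against 0.486, 1.73 and 0.478 TPM in unstimulated dE9 libraries (log2 fold change 1.90 ± 0.53 (SE), edgeR adjusted p = 0.0125). JAKMIP1, which encodes a protein that binds Janus kinases and microtubules, had 17.6, 13.1 and 7.61 TPM in PMA-treated dE9 libraries, against 29.97, 25.1 and 35.2 TPM in unstimulated dE9 libraries (log2 fold change -1.36 ± 0.26 (SE), edgeR adjusted p = 0.00111). In WT the log2 fold changes were 2.68 ± 0.68 for LINC02495 and -1.40 ± 0.32 for JAKMIP1 (SE; edgeR adjusted p = 0.0123 and 0.00651). In iE9 JAKMIP1 fell (log2 fold change -1.23 ± 0.26 (SE), edgeR adjusted p = 0.00313) and LINC02495 did not pass (log2 fold change 0.99 ± 0.55 (SE), edgeR adjusted p = 0.2), although it did with the replicate block (edgeR adjusted p = 0.0223). The opposite pair in iE9 was LINC01011, whose start is 20 bases from that of NQO2, a quinone reductase gene. LINC01011 had 3.43, 2.697 and 3.195 TPM in PMA-treated iE9 libraries, against 1.26, 0.718 and 0.621 TPM in unstimulated iE9 libraries (log2 fold change 1.85 ± 0.45 (SE), edgeR adjusted p = 0.00697). NQO2 had 23.6, 37.8 and 31.9 TPM in PMA-treated iE9 libraries, against 40.8, 59.2 and 56.2 TPM in unstimulated iE9 libraries (log2 fold change -0.50 ± 0.16 (SE), edgeR adjusted p = 0.0337).

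**Figure D5:**
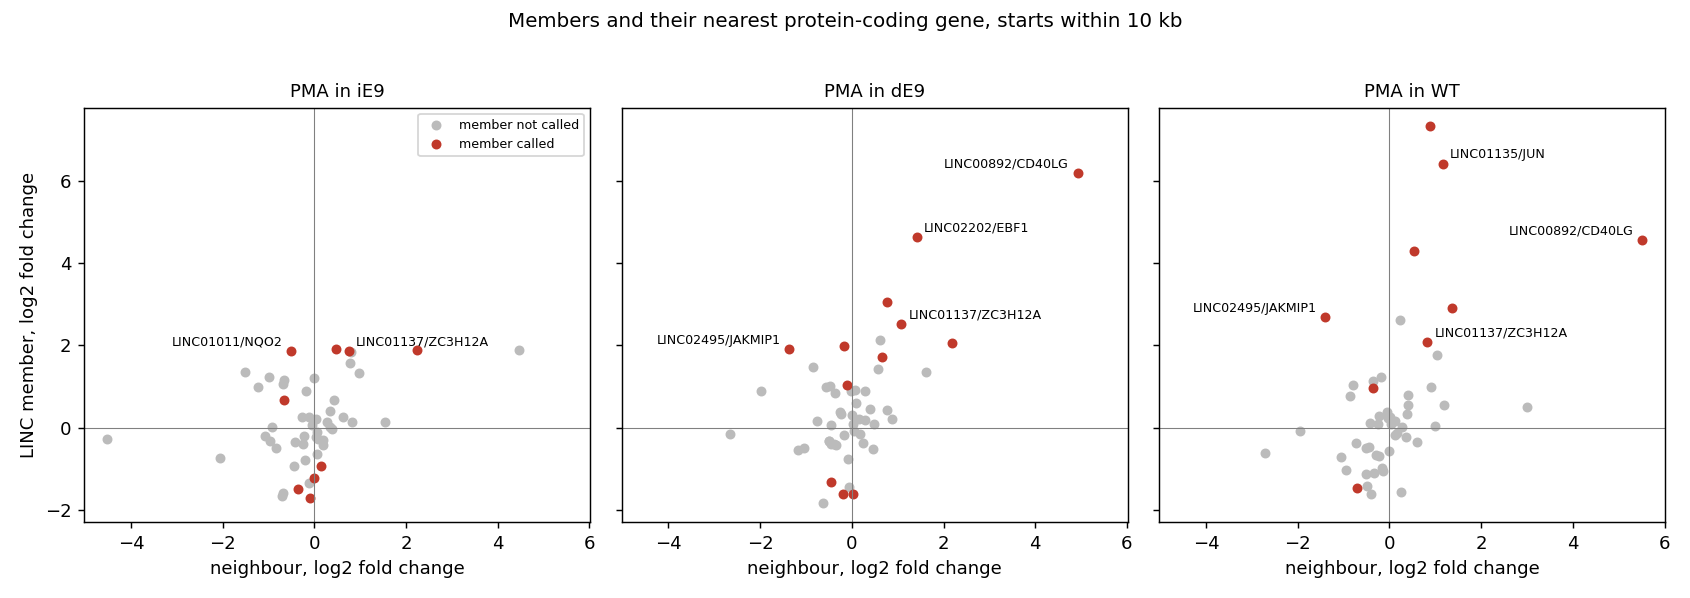
Log2 fold change with PMA of 52 LINC members (y axis) and of the nearest protein-coding gene with a start within 10 kb (x axis) in each line, with members that passed the test in red. Pairs in which both passed are named; LINC00892/CD40LG lies far to the upper right in dE9 and WT, and LINC02495/JAKMIP1 to the upper left there.

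Lists of LINC genes with a described role were looked up among the members. Of 20 LINC genes listed as expressed in T cells or other lymphocytes, 13 were members and 12 were tested: 2 rose and 3 fell with PMA in iE9, 3 and 1 in dE9, and 3 and 1 in WT, with median log2 fold changes of 0.36, 0.42 and 0.83. Of all genes tested, 27.1% were called in iE9, 33.5% in dE9 and 22.3% in WT. Those called in all 3 lines were LINC01215 and LINC00649, higher, and LINC01226, lower. LINC00649 overlaps the ATP synthase gene ATP5PO on the other strand, and had 5.92, 10.9 and 11.5 TPM in PMA-treated dE9 libraries, against 6.34, 7.78 and 5.81 TPM in unstimulated dE9 libraries. The groups overlapped in TPM, although the counts passed (log2 fold change 1.03 ± 0.23 (SE), edgeR adjusted p = 0.00353). With an offset for effective transcript length it passed in no line (edgeR adjusted p = 0.435 in iE9, 0.127 in dE9 and 0.507 in WT). Its iE9 call, at an edgeR adjusted p of 0.0405, was lost in 8 fits without 1 library, and its WT call in 3 (edgeR adjusted p up to 0.148 and 0.169).

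LINC00426 fell in iE9. It had 6.403, 13.4 and 8.45 TPM in PMA-treated iE9 libraries, against 15.6, 23.4 and 17.2 TPM in unstimulated iE9 libraries (log2 fold change -1.30 ± 0.37 (SE), edgeR adjusted p = 0.0171), a call lost without iE9 unstimulated library 2 or iE9 PMA library 1 (edgeR adjusted p up to 0.0819). In WT it had 10.3 and 9.303 TPM with PMA and 18.4 and 16.2 TPM without, which did not pass (log2 fold change -0.69 ± 0.45 (SE), edgeR adjusted p = 0.292), and in dE9 the ranges overlapped. LINC00528, 2552 bases by start from the apoptosis gene BID, had log2 fold changes of -0.50 in iE9, -0.49 in dE9 and -0.73 in WT, and none passed; with the replicate block it passed in iE9 and dE9 (edgeR adjusted p = 0.0183 and 0.0181). LINC00861 had 5.93, 3.46 and 3.51 TPM in PMA-treated iE9 libraries, against 4.64, 1.39 and 1.33 TPM in unstimulated iE9 libraries, and passed in iE9 only with the block (edgeR adjusted p = 0.0374).

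LINC02273, LINC00877 and LINC01934, also of the T cell list, did not pass with PMA in any line. LINC02273 had 1.59, 15.5 and 5.49 TPM in PMA-treated dE9 libraries, against 0.866, 12.5 and 4.81 TPM in unstimulated dE9 libraries, where library 2 was high and library 1 low in both treatments. LINC00877 had 0.466 and 9.58 TPM in PMA-treated WT libraries, against 0.0352 and 0.241 TPM in unstimulated WT libraries, a change that did not pass (log2 fold change 2.79 ± 1.31 (SE), edgeR adjusted p = 0.139). LINC01934 had 0.08595, 0.0911 and 0.715 TPM in PMA-treated iE9 libraries and 1.64 and 1.51 TPM in PMA-treated WT libraries, a line difference that was not called.

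Of 20 LINC genes listed for roles in signalling, the cell cycle or cancer, 10 were members, and 3 rose and 0 fell with PMA in each line, with median log2 fold changes of 0.95 in iE9, 0.76 in dE9 and 0.59 in WT. These 3 of 10 stand against 27.1% of all genes called in iE9, 33.5% in dE9 and 22.3% in WT. LINC00324 and LINC00847 rose in all 3 lines, LINC00963 in dE9 and WT, and LINC00511 in iE9. LINC00511 had 2.23, 0.669 and 0.718 TPM in PMA-treated iE9 libraries, against 0.136, 0.136 and 0 TPM in unstimulated iE9 libraries (log2 fold change 2.84 ± 0.89 (SE), edgeR adjusted p = 0.0286). Its fold change did not pass in the other lines (-0.13 ± 0.77 in dE9 and 0.01 ± 0.97 in WT, log2 with SE). It lost its iE9 call without iE9 unstimulated library 2 or 3 or iE9 PMA library 1 (edgeR adjusted p up to 0.108). LINC-PINT, a target of p53 that overlaps MKLN1, and LINC00662 and LINC00665 did not pass in any line. LINC00174 had 10.9, 10.3 and 14.2 TPM in PMA-treated dE9 libraries, against 7.32, 6.44 and 9.31 TPM in unstimulated dE9 libraries (log2 fold change 0.64 ± 0.30 (SE), edgeR adjusted p = 0.12), and passed there with the replicate block (edgeR adjusted p = 0.00925).

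Of 10 LINC genes listed as sources of a small peptide, 2 were members. LINC00467, which encodes a mitochondrial micropeptide in colorectal cancer cells, had 8.57 and 3.197 TPM in PMA-treated WT libraries, against 0.397 and 1.63 TPM in unstimulated WT libraries (log2 fold change 1.90 ± 0.58 (SE), edgeR adjusted p = 0.0287). It had 1.49, 3.17 and 3.22 TPM in PMA-treated iE9 libraries, against 4.53, 1.17 and 5.36 TPM in unstimulated iE9 libraries, and the fold change there did not pass (log2 fold change -0.45 ± 0.46 (SE), edgeR adjusted p = 0.503). The WT call was lost without either WT unstimulated library or WT PMA library 1 (edgeR adjusted p up to 0.295). LINC00266-1 was at most 1.58 TPM in any library and did not pass in any line.

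Genes that process or degrade such RNAs were listed as well. Of 25 tested genes of nuclear RNA decay, 2 rose and 9 fell with PMA in iE9, 1 and 12 in dE9, and 0 and 7 in WT, with median log2 fold changes of -0.39, -0.45 and -0.28. Among all genes tested, 12.6% rose and 14.4% fell in iE9, 17.1% and 16.5% in dE9, and 11.1% and 11.3% in WT, which is the background for this list and for the next 2. The lowest p-values in WT were those of the exosome subunit genes EXOSC9 (-1.32 ± 0.20 (SE), edgeR adjusted p = 0.000492), EXOSC2 (-1.28 ± 0.23 (SE), edgeR adjusted p = 0.00164), EXOSC5 (-1.72 ± 0.32 (SE), edgeR adjusted p = 0.00209) and EXOSC8 (-2.14 ± 0.41 (SE), edgeR adjusted p = 0.00249), given as log2 fold changes. Of 20 genes of polyadenylation, 1 rose and 3 fell in iE9, 1 and 8 in dE9, and 0 and 4 in WT. In WT those were CSTF3 (-0.71 ± 0.16 (SE), edgeR adjusted p = 0.00527), NUDT21 (-1.04 ± 0.25 (SE), edgeR adjusted p = 0.00972), CPSF6 (-0.59 ± 0.17 (SE), edgeR adjusted p = 0.0249) and PABPC4 (-0.50 ± 0.16 (SE), edgeR adjusted p = 0.0397). Of the 25 tested long noncoding RNAs outside the LINC series, 2 rose and 7 fell in iE9, 7 and 7 in dE9, and 3 and 5 in WT. DANCR, a host of small nucleolar RNA, fell in WT (-2.16 ± 0.26 (SE), edgeR adjusted p = 9.68e-05). Whether lower decay factors have a part in the rise of members was not tested.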

How the data were processed

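RNA-seq of polyadenylated RNA from JSL1 cells was used from 16 libraries. The authors quantified transcripts with Salmon and also used DESeq2 on genome build hg38, per the submitters' processing notes, with versions and strandedness not given in the sources used here. The deposited transcript files hold estimated counts, TPM and effective lengths, and a deposited table holds gene TPM, which equals the sum of transcript TPM. Of 205870 transcripts, 205870 matched GENCODE release 29, and 1880 of 1891 LINC genes had the same symbol in the gene table.

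Gene sums of the estimated counts were rounded to whole numbers. The test was the quasi-likelihood F test of edgeR 4.0.16 (R 4.3.3) over all 16 libraries and 6 groups, with TMM factors and the default filter on low counts, for 12 comparisons. P-values were adjusted by Benjamini-Hochberg over 18073 genes, and an adjusted p under 0.05 is a call ("passed", "rose", "fell"). The SE is the log2 fold change divided by the square root of F. The biological coefficient of variation was 31.79%. Totals of 14536521 to 21888846 counts per library set the precision. Alternatives were RLE factors, DESeq2 1.42.0, no filter, an effective length offset, the groups of a comparison alone, the replicate number as a block, each library left out, and, added after the data were seen, both iE9 libraries numbered 1 left out. Thresholds of 1 TPM and of 0.5 TPM in every library of a group gave 221 and 218 members. In the report's text, where the lower group held 3 counts or fewer, a bound against 3 counts per library or a ratio with a 95% counting interval replaces the fitted fold. The bound takes the mean of the higher group, so single libraries of that group can lie under the floor.

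The labels number libraries within groups. Deviations of same-numbered PMA-treated and unstimulated libraries correlated at 0.4414, 0.2261 and 0.1900 in iE9 and at 0.2968, 0.3048 and 0.2395 in dE9, so numbers were taken to pair them there, and at 0.0730 in WT, where they were not. Libraries with different numbers correlated at -0.3091 to 0.1533 in iE9 and at -0.1888 to -0.0417 in dE9. The highest in iE9 came near the same-numbered values of libraries 2 and 3, so pairing is less clear there. The main test ignored this pairing, also for PMA in iE9 and dE9. Only the replicate block, given as an alternative, used it.

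Members and gene lists were chosen with earlier results of these data known. Named are the 10 most abundant members, those with the largest fitted folds among calls without overlap (6 per direction for PMA, 5 between lines), those called in all 3 lines (8 per direction), list members, the 5 steadiest, and neighbours within 10 kb.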

Additional observations from a re-analysis of the deposited data

Results flagged for a closer look

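Of the PMA responses compared between lines, 3 members had opposite directions in 2 lines with an unadjusted p under 0.05 for the difference, and none of them passed after adjustment. LINC02012 had a log2 fold change with PMA of -3.54 in iE9 and 1.08 in WT, a difference of -4.62 (edgeR adjusted p = 0.533). LINC00467, a micropeptide gene, had -0.45 in iE9 and 1.90 in WT, a difference of -2.35 (edgeR adjusted p = 0.608). LINC01659 had 0.86 in dE9 and -1.79 in WT, a difference of 2.65 (edgeR adjusted p = 1.0). The WT value is a fitted one over 3 counts with PMA and 10 without, a ratio of 3.75 of unstimulated to PMA by counts with a 95% interval of 0.965 to 21.2.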

How the results depend on the processing

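Of 82 named calls, 41 held in each of the 16 fits that left out 1 library. RLE factors and DESeq2 kept 82, no filter on low counts 79, the replicate block 76, the effective length offset 62, the groups of a comparison alone 58 of 62 that could be fitted, and leaving out both iE9 libraries numbered 1 kept 65 of 81. Over the fits without 1 library, counts of called members ran from 11 to 54 for PMA in WT, 49 to 70 in dE9 and 29 to 53 in iE9. Over the same fits they ran from 1 to 7 for iE9 against dE9 with PMA and from 1 to 7 without, and from 0 to 1 for iE9 against WT with PMA and from 0 to 4 without. With only the groups compared, 41 members were called with PMA in dE9, 1 for iE9 against dE9 with PMA, 1 without and 4 for iE9 against WT with PMA. Without both iE9 libraries numbered 1 the counts were 31 for PMA in iE9, 1 and 2 for iE9 against dE9 with and without PMA, and 0 for iE9 against WT without PMA. With the effective length offset, 1 was called for iE9 against dE9 with PMA and 0 for iE9 against WT without PMA. Without the filter, the counts were 10 and 9 for iE9 against dE9 with and without PMA, 11 and 13 for iE9 against WT, 1 and 3 for dE9 against WT, and 2 and 1 for the response differences of iE9 against dE9 and against WT. DESeq2 called 56 members with PMA in WT, 72 in dE9 and 53 in iE9, against 4875, 6571 and 5505 of 18073 genes. It called 9 and 8 members for iE9 against dE9 with and without PMA, against 1280 and 836 genes. For iE9 against WT it called 5 and 13 members, against 696 and 824 genes. No share of all genes stands beside the counts under the other settings, so those describe the set only.

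The replicate block ended the PMA calls of LINC00847 in iE9 and dE9 (edgeR adjusted p = 0.0661 and 0.0574) and LINC01204 in dE9 (0.0636). In groups whose numbers do not pair libraries it gave edgeR adjusted p = 0.122 for LINC00462, 0.0858 for LINC01140 and 0.0539 for LINC00243 in WT, and 0.0524 for LINC01876 and 0.05 for LINC00963 between iE9 and dE9 with PMA. In WT it also called LINC00589, LINC00174, LINC00861, LINC00528 and LINC01578 (edgeR adjusted p = 0.0409, 0.0263, 0.00725, 0.0114 and 0.0197). In iE9 and dE9 its further calls are given with each member, and it changed no other named PMA call in iE9 or dE9.

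Directions reversed only for changes that were not called, and the cause was not tested. Log2 fold changes with the effective length offset were -0.33 for LINC01278 in WT, -1.07 in iE9 and -0.31 in dE9 for LINC00877, and -0.0657 in iE9 and -0.15 in WT for LINC01128. With the replicate block they were 0.26 for LINC02446 in dE9 and -0.12 for LINC00511 in WT, and DESeq2 gave 0.0262 for LINC02446 in dE9, where PMA-treated and unstimulated libraries held 3 counts each in sum. Without both iE9 libraries numbered 1, LINC00877 in iE9 had -0.25. Over the fits without 1 library, the log2 fold change ran from -0.0796 to 0.34 for LINC01578 in iE9, -0.12 to 0.39 for LINC01089 in iE9, -0.0415 to 0.30 for LINC01089 in WT, -0.21 to 0.0267 for LINC00339 in iE9, -0.0101 to 0.16 for LINC00339 in WT, -0.48 to 0.0397 for LINC01184 in iE9, -0.75 to 0.42 for LINC00861 in dE9, -0.55 to 2.99 for LINC02446 in dE9, -0.0329 to 0.37 for LINC02273 in iE9, -0.62 to 1.35 for LINC02273 in dE9, -0.24 to 1.11 for LINC00877 in iE9, -0.30 to 2.19 for LINC00877 in dE9, -0.33 to 0.46 for LINC-PINT in WT, -0.91 to 0.41 for LINC00511 in dE9, -0.93 to 0.63 for LINC00511 in WT, -0.22 to 0.0778 for LINC01128 in dE9, -0.28 to 0.33 for LINC01003 in dE9, -0.73 to 0.11 for LINC01003 in WT and -0.10 to 0.18 for LINC00909 in dE9.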
